A study of Mus musculus with 6 samples.

Results

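The genes described here encode the nuclear-encoded subunits of oxidative phosphorylation, the respiratory chain and ATP synthase of the mitochondrial inner membrane. They were chosen by symbol alone: names beginning with Nduf and a letter a, b, c, s or v followed by a digit, with Uqcr, with Cox and a digit from 4 to 8, or with Atp5, and the 4 Sdh genes. This gave 84 of the 23992 gene symbols in the count table: 35 genes of complex I, 4 of complex II, 8 of complex III, 20 of complex IV and 15 of complex V. The remaining 2, Atp5s and Atp5sl, matched by name only, and RefSeq now lists them as Dmac2l and Dmac2. The subunits that the mitochondrial genome itself encodes are not analysed here, since the table used held 0 mitochondrially encoded symbols.

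RNA was counted in 6 libraries of mouse Treg cells, regulatory T cells that are defined by the transcription factor Foxp3 and hold immune responses in check. The 3 libraries called KO came from Foxp3YFP-Cre/Y Crlf2fl/fl mice, in which Cre made under Foxp3 deletes Crlf2, the gene of the receptor chain that binds the cytokine TSLP. The 3 libraries called WT came from Foxp3YFP-Cre/Y mice, so that both groups carry the YFP-Cre allele, and both were CD45.2 and carried a Y chromosome. By the labels, cells were sorted live as CD4+ and YFP+ from spleen and lymph nodes that had been pooled. The title of the count table names lung instead, and lung epithelial transcripts were counted in every library (values below). Which tissue the cells came from is thus uncertain. No age, treatment or number of animals per library was given in the labels. The p-values thus measure spread between samples that may be technical replicates. The series' title asks after TSLP acting on Treg cells and their identity. For the subunit genes the comparison asks whether Treg cells with and without Crlf2 differ in the transcripts of the respiratory chain.

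Oxidative phosphorylation passes electrons from NADH (complex I) and succinate (complex II) through ubiquinone, complex III and cytochrome c to oxygen at complex IV. Complexes I, III and IV pump protons, and complex V, the ATP synthase, makes ATP as the protons flow back. Treg cells are known to lean on this pathway more than effector T cells do, and subunits of each complex are assembled in fixed proportions.

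Promoters of these genes are known for a small set of factor motifs, and the stretches below show how such matches lie in a few members, chosen as examples after the search. RefSeq promoter windows (250 bases before to 50 after the start, build GRCm38.p6) were found for 69 of the 84 members. A gene with several windows was counted once, with a match in any of them. The motif of NRF1 (nuclear respiratory factor 1, searched as GCGCATGCG on both strands) stood in 8 of 69 members (11.6%), against 1.95% of 27025 genes. The ETS motif read by GABPA (CCGGAAG) stood in 16 members (23.2%, all genes 9.93%), the YY1 motif (AAGATGGC) in 11 (15.9%, all genes 3.19%) and the ERRA motif (TCAAGGTCA) in 2 (2.90%, all genes 0.466%). At least 1 of the 4 stood in 44.9% of the members and in 14.5% of all genes, and the members' windows were also richer in G and C (median 57.3% against 52.8%). A match is a run of letters and not a site shown to be bound. Each stretch is written 5′ to 3′ on the gene's strand with the matched letters in capitals. The palindromic NRF1 motif is shown for the subunit c gene Atp5g2 at chr15:102671065-102671104 (minus strand), for Atp5k at chr5:108434425-108434464 (minus) and for Ndufa11 at chr17:56717687-56717726 (plus).
Atp5g2: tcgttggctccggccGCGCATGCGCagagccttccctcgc
Atp5k: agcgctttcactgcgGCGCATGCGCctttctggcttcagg
Ndufa11: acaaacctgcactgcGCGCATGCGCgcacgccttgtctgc
Atp5j, a peripheral stalk subunit, had a YY1 and an ETS match at chr16:84835016-84835079 (minus). Its other window, further upstream, had none of the 4 motifs in the 250 bases before its start. Ndufb7, the complex I gene of highest level, had an ETS match at chr8:83566723-83566757 (plus).
Atp5j: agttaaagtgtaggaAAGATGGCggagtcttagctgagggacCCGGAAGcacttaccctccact
Ndufb7: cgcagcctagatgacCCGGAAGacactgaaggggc
A second subunit c gene, Atp5g3, had no NRF1 match in the 250 bases before its start. It had an ERRA match there on the opposite strand, at chr2:73911355-73911393 (minus). Ndufa4, the member of smallest p in the comparison below, had none of the 4 motifs in the 250 bases before its start. The last 60 of these bases, at chr6:11907451-11907510 (minus), are shown for contrast.
Atp5g3: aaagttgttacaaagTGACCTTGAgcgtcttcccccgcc
Ndufa4: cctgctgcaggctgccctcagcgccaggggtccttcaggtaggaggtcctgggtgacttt

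Library totals over 1 row per symbol (the row of highest summed count) ran from 1439736 counts (WT replicate 2) to 18352401 (KO replicate 3). Over all rows these 2 libraries held 2043360 and 26277787 counts. Shares of the counts given below use the totals over 1 row per symbol. The limit of 3 reads that a count of 0 allows equals 0.157 to 2.05 CPM (counts scaled to library size with TMM factors). Crlf2 checked the labels: its mean was 115 ± 27.7 CPM in WT and 6.44 ± 2.76 CPM in KO (SD, n = 3), which was -4.16 (SE 0.36) as a log2 fold change, with an adjusted p of 0.0047 in edgeR. In the descriptions the strain lines of KO and WT are exchanged. The grouping here follows the titles and genotype tags, and Crlf2 was low in all 3 libraries that these call KO. The labels give spleen and lymph node, whereas the title of the table names lung. Foxp3 averaged 370.1 ± 148 CPM over WT libraries and 434 ± 52.1 CPM over KO libraries (SD, n = 3). The 15 Treg and T cell markers held 0.421% to 0.785% of WT counts and 0.802% to 0.883% of KO counts. Markers of other cells were unevenly spread. The 11 erythroid markers took 0.173% to 14.5% in WT (highest in replicate 3) and 0.195% to 0.288% in KO, and the 14 lung epithelial markers 1.72% to 7.60% in WT (highest in replicate 1) and 0.252% to 1.99% in KO. The 12 macrophage markers took 0.0530% to 0.753% in WT and 0.288% to 0.315% in KO. B cell (8 markers), neutrophil (6) and muscle (12) markers each stayed at or under 0.0334% in every library, with Mb, the muscle myoglobin gene, at 0 throughout. With the lung epithelial or the erythroid share as a covariate, the median log2 fold change of the subunit genes was -0.080 or -0.076 and 0 were called. The log2 fold change changed sign in 15 or 14 of the 78 tested members, and over all genes 8 or 470 were called in these fits. The part of the other markers was not tested.

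The subunits were expressed over a wide range of levels, and the order of the genes was nearly the same in WT and KO. Levels are compared between genes as CPM per kilobase of transcript. The highest level was that of Cox4i1, the regulatory subunit 4 of cytochrome c oxidase (814 CPM per kb over the 6 libraries), followed by Cox6a1 (706) and Cox8a (671), also of complex IV. The lowest of the ubiquitous subunits was Ndufs1, the largest iron-sulphur protein of complex I, at 15.2 CPM per kb, 53.7-fold below Cox4i1. Complexes IV and V had the highest medians (314 and 319 CPM per kb, over 12 and 15 genes without tissue-restricted isoforms), complex III came next (267), and complexes I and II were lower (109 and 95.9). Across the 74 genes that remain without 8 tissue-restricted isoforms and the 2 name-only matches, log2 levels in WT and KO correlated with a Pearson r of 0.993, a description across genes that share libraries and transcript lengths.

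**Figure D1:**
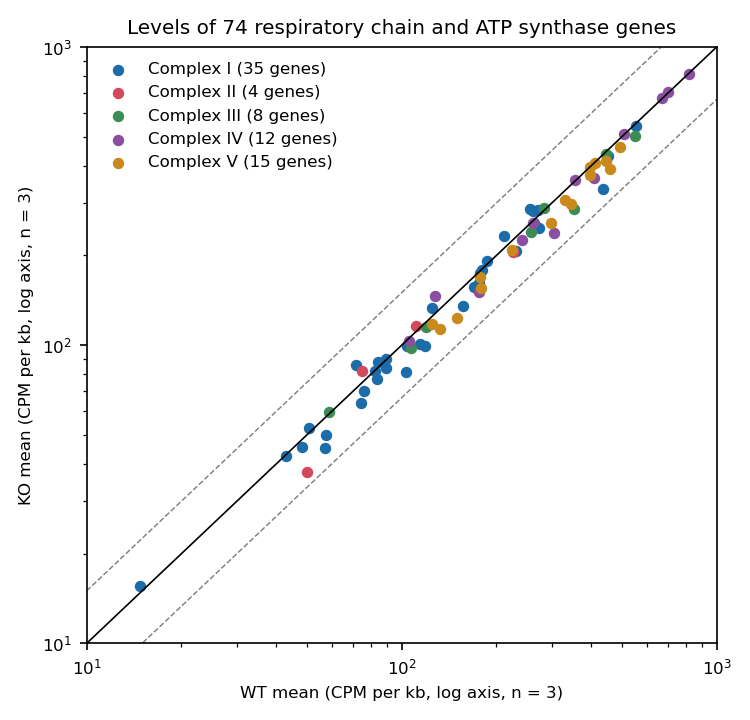
Mean level of 74 subunit genes in WT (x axis) and KO (y axis), both in CPM per kilobase on log axes with n = 3 libraries each, coloured by complex; the solid line marks equal levels and the dashed lines a 1.5-fold difference. Genes lie along the line of equal levels from Ndufs1 at the bottom to Cox4i1 at the top.

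No subunit gene passed the test between KO and WT. Of the 84 members, 78 had enough reads to be tested, and 0 were called in either direction at an adjusted p under 0.05 (edgeR quasi-likelihood test, Benjamini-Hochberg over 12720 genes), where 1.74% of all tested genes were called, 0.755% higher and 0.983% lower in KO. The smallest adjusted p among members was 0.208 (edgeR). Without adjustment, 3 members had p under 0.05 in edgeR, all lower in KO, against 15.9% of all tested genes in either direction and 9.13% lower in KO. The DESeq2 alternative also called 0 members, with 4 at an unadjusted p under 0.05.

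Under TMM scaling, estimates were tight as well as small. The intervals below take the TMM factors as known and hold no error of scaling. Other scalings moved the members' median log2 fold change from -0.081 to 0.092 (library totals) or -0.39 (pan-T cell genes). The median standard error of a member's log2 fold change was 0.142, against 0.288 over all tested genes and 0.182 over the 5733 genes of at least 30 CPM. The 95% interval of the fold change lay within 1.5-fold in either direction for 63 of the 78 tested members (all tested genes 19.4%; genes of at least 30 CPM 2371 of 5733). It lay within 2-fold for 75 of the 78 (all tested genes 48.9%; genes of at least 30 CPM 4759 of 5733), including all 74 ubiquitous subunits. Over those 74 genes the bounds reached no lower than 0.546-fold (Sdhc) and no higher than 1.61-fold (Ndufv1). The library-to-library coefficient of variation over all 6 libraries had a median of 11.2% over tested members, 26.2% over all tested genes and 17.2% over genes of at least 30 CPM.

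**Figure D2:**
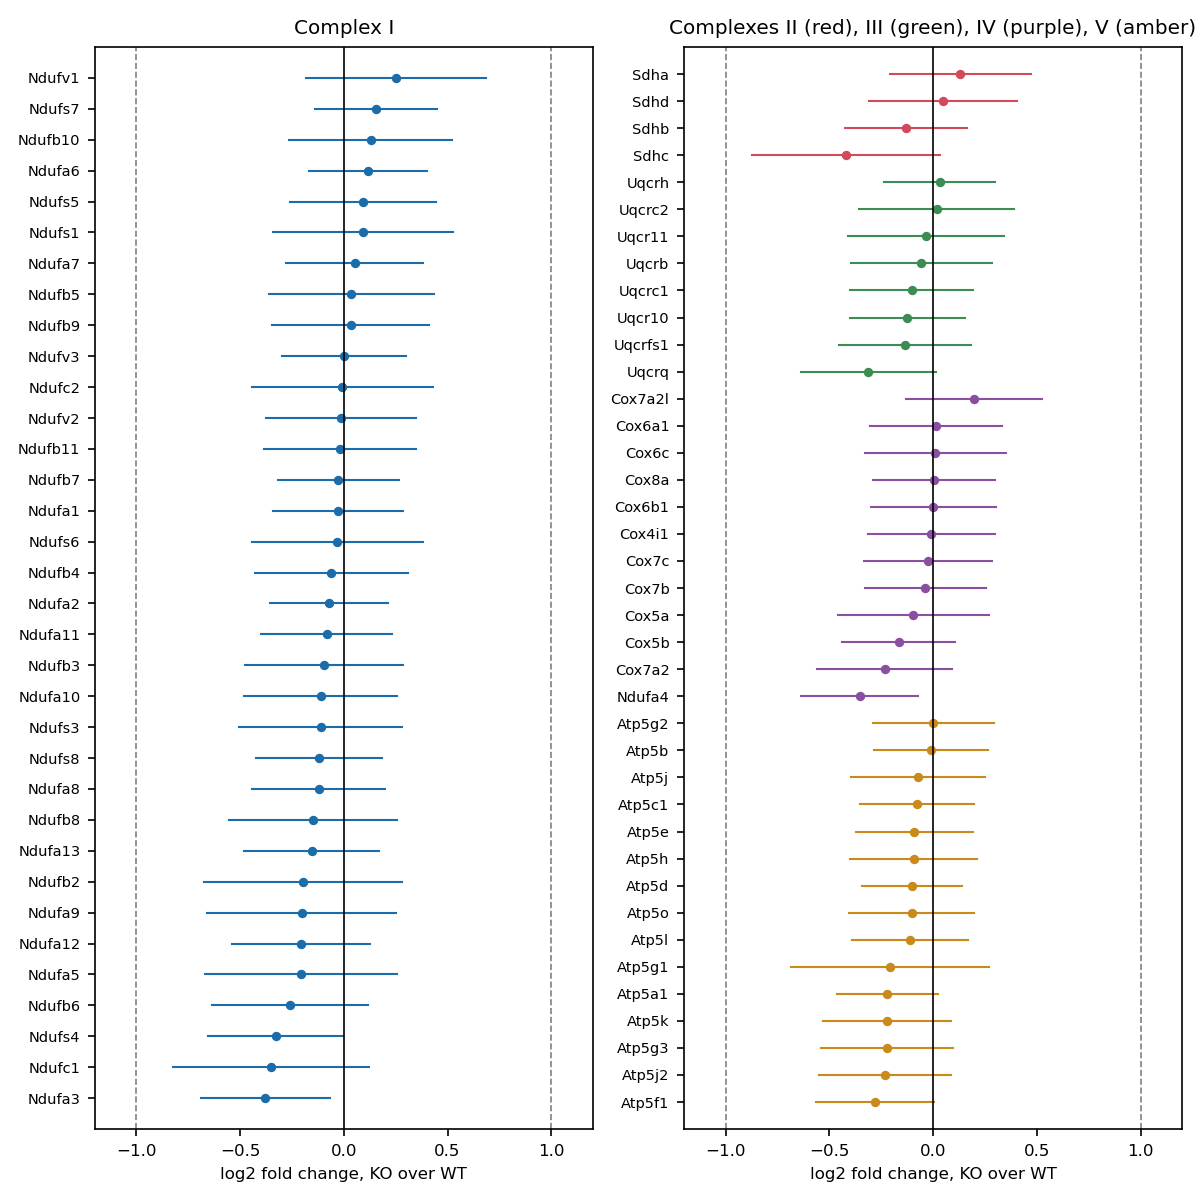
Log2 fold change of KO over WT for 73 of the 74 ubiquitous subunit genes, grouped by complex, with bars for the 95% interval (edgeR, n = 3 and 3); the solid line marks equal levels and the dashed lines a 2-fold difference. The bars of most genes cross 0, those of Ndufa4, Ndufa3 and Ndufs4 lie just below it, and none of these passes adjustment.

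Point estimates leaned slightly low. The median log2 fold change was -0.081 over the 78 tested members, -0.044 over all tested genes and 0.0053 over genes of at least 30 CPM, and 56 of 78 members were below 0 (6897 of 12720 among all genes). With library totals in place of TMM factors the median turned to 0.092 (all genes 0.14) and 20 of 78 members were below 0, so the direction of the lean depends on the scaling. The values of KO and WT did not overlap in 8 members, all with KO lower, beside 22.0% of all tested genes without overlap, 11.5% with KO lower. No member had KO higher throughout (all tested genes 10.4%). In bulk RNA, fewer cells of a type and less RNA per cell cannot be told apart.

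Complex I oxidises NADH. Its 7 nuclear-encoded core subunits, which hold the flavin and the iron-sulphur clusters, had log2 fold changes below 0 in 3 of 7 genes, whereas its 28 accessory subunits had a median of -0.076 with 22 of 28 below 0. The difference between these 2 sets was not tested. In the module that takes electrons from NADH, Ndufv1, the flavoprotein, gave 118, 87.6 and 139 CPM in the WT libraries and 121, 133 and 159 CPM in the KO libraries, with KO replicate 3 highest and WT replicate 2 lowest. Its log2 fold change, 0.25 (SE 0.19), was the highest of the ubiquitous subunits and had an adjusted p of 0.574 (edgeR). Ndufs1 gave 34.2, 49.95 and 45.3 CPM in the WT libraries and 44.2, 43.5 and 49.0 CPM in the KO libraries (log2 fold change 0.091 (SE 0.19)), and Ndufv2, which carries a further cluster, 65.0, 72.5 and 73.1 CPM in the WT libraries and 72.0, 58.8 and 77.7 CPM in the KO libraries (log2 fold change -0.013 (SE 0.16)). The groups overlapped in both. In the module that reduces ubiquinone, Ndufs7, which holds the last iron-sulphur cluster, gave 200.1, 186 and 196 CPM in the WT libraries and 201, 199.9 and 247 CPM in the KO libraries. Its KO replicate 3 stood above the other 5 libraries, which lay close together. Log2 fold changes were -0.11 for Ndufs3, 0.15 for Ndufs7 and -0.12 for Ndufs8, with adjusted p from 0.613 to 0.803 (edgeR).

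Among the accessory subunits of complex I, Ndufa3, a small membrane-arm protein (gene at chr7:3617347-3620165, GRCm38.p6), gave 162, 149.9 and 143 CPM in WT replicates 1 to 3 and 127, 102 and 120.4 CPM in KO replicates 1 to 3. All 3 KO values were below all 3 WT values. The log2 fold change was -0.38 (SE 0.14) with a 95% interval of -0.69 to -0.068, unadjusted p = 0.023 and adjusted p = 0.223 (edgeR). Ndufs4, an accessory subunit whose loss causes an early-onset encephalopathy in mice and people (gene at chr13:114287795-114388094), gave 80.1, 97.8 and 85.1 CPM in WT replicates 1 to 3 and 74.7, 67.0 and 67.0 CPM in KO replicates 1 to 3. These groups did not overlap either, and WT replicate 2, the shallowest library, was the highest. The log2 fold change of Ndufs4 was -0.33 (SE 0.14), with unadjusted p = 0.049 and adjusted p = 0.313 (edgeR). Ndufc1 had the next smallest p in the complex, with 50.9, 34.2 and 42.7 CPM in the WT libraries and 38.9, 31.9 and 30.6 CPM in the KO libraries, overlapping groups and a log2 fold change of -0.35 (SE 0.21). The most abundant complex I transcripts, Ndufb7 (548 CPM per kb) and Ndufa2 (442), differed little, with log2 fold changes of -0.027 (SE 0.13) and -0.070 (SE 0.12). The remaining 23 accessory genes ranged from -0.26 (Ndufb6) to 0.13 (Ndufb10) on the log2 scale.

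Complex II, succinate dehydrogenase, belongs to the respiratory chain and to the tricarboxylic acid cycle alike and is wholly nuclear-encoded. Its catalytic subunits gave log2 fold changes of 0.13 (SE 0.15) for the flavoprotein Sdha and -0.13 (SE 0.13) for the iron-sulphur protein Sdhb. Sdha gave 184, 219.6 and 238 CPM in the WT libraries and 256, 201 and 245 CPM in the KO libraries, with the highest value in KO replicate 1 and the lowest in WT replicate 1. Sdhb gave 245, 254 and 227 CPM in the WT libraries and 216, 197 and 249.8 CPM in the KO libraries, and the groups overlapped. The membrane anchor Sdhc (gene at chr1:171129157-171150640) gave 69.4, 52.0 and 55.7 CPM in the WT libraries and 46.5, 51.3 and 35.5 CPM in the KO libraries. Its KO values were all lower, but KO replicate 2 lay only 0.693 CPM under WT replicate 2, and KO replicate 3 set the lower end. The log2 fold change of Sdhc, -0.42 (SE 0.20), was the lowest of the ubiquitous subunits and did not pass (unadjusted p = 0.066, adjusted p = 0.353, edgeR). The other anchor, Sdhd, had a log2 fold change of 0.047 (SE 0.16) and overlapping groups. As a ratio of CPM per kb, Sdhc over Sdha was 0.685 ± 0.198 in WT and 0.470 ± 0.136 in KO (SD, n = 3). The groups overlapped, since KO replicate 2 lay above WT replicates 2 and 3.

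Complex III passes electrons from ubiquinol to cytochrome c. Its core proteins Uqcrc1 and Uqcrc2 had log2 fold changes of -0.10 (SE 0.13) and 0.017 (SE 0.16), and the Rieske iron-sulphur protein Uqcrfs1 one of -0.14 (SE 0.14). Uqcrq, a small subunit named for binding ubiquinone, came nearest to the threshold in this complex with 202, 151 and 176 CPM in the WT libraries and 140.1, 134 and 153 CPM in the KO libraries. Only KO replicate 3 overlapped with WT, at a value just above WT replicate 2, and the log2 fold change was -0.31 (SE 0.14) (unadjusted p = 0.057, adjusted p = 0.332, edgeR). Uqcr10 and Uqcr11, the most abundant transcripts of the complex at 526 and 441 CPM per kb, had log2 fold changes of -0.12 and -0.034, and Uqcrb and Uqcrh ones of -0.058 and 0.032. The groups of these 4 genes overlapped.

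Complex IV, cytochrome c oxidase, reduces oxygen. Its most abundant transcripts were nearly level between the groups: Cox4i1 gave 618, 484 and 560.4 CPM in the WT libraries and 506, 519 and 627 CPM in the KO libraries, a log2 fold change of -0.0096 (SE 0.13). Cox6a1 had a log2 fold change of 0.014 (SE 0.14) and Cox8a one of 0.0049 (SE 0.13). Of the other ubiquitous subunits, Cox5a and Cox5b had log2 fold changes of -0.10 and -0.17, and Cox6c one of 0.011. Ndufa4 was first assigned to complex I and is now known as a subunit of complex IV (gene at chr6:11900372-11907450). It gave 159, 146 and 145 CPM in WT replicates 1 to 3 and 123, 108 and 121 CPM in KO replicates 1 to 3. The WT values lay within 14.0 CPM of each other and every KO value was lower, the nearest by 21.6 CPM. The log2 fold change was -0.35 (SE 0.12) with a 95% interval of -0.64 to -0.072, unadjusted p = 0.020 and adjusted p = 0.208 (edgeR). Over the 20 alternative fits the adjusted p of Ndufa4 ran from 0.136 to 0.551, always with KO lower.

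Several complex IV subunits exist as isoforms whose use differs between tissues, and in these libraries nearly all reads came from the widely expressed forms. As a share of CPM per kb in its family, the heart and skeletal muscle isoform Cox6a2 took 0.0308% to 1.41% per library and the testis isoform Cox6b2 0% to 1.44%, both highest in WT replicate 3, the library with the most erythroid, macrophage, B cell and neutrophil marker counts. Cox6a2 had 1, 2 and 67 reads in WT and 8, 30 and 57 in KO, and its log2 fold change of -0.43 (SE 1.09) is too imprecise to place. Cox4i2, an isoform known from lung, had at most 4 reads in a library and 0.132% of its family. The muscle isoform Cox7a1 took 0% to 1.26%, Cox8b and Ndufa4l2 had 3 and 1 reads in all, and Cox7b2 and Cox8c had 0, which allows up to 3 reads per library; these limits cover counting error only. These 6 last-named genes were not tested. Between Cox7a2 and Cox7a2l, a related protein known for its part in joining complexes III and IV, Cox7a2 took 57.5% ± 6.49 of the family in WT and 50.3% ± 2.55 in KO, and Cox7a2l 42.0% ± 6.37 and 48.8% ± 2.90 (SD, n = 3). Cox7a2l gave 136, 169.7 and 135 CPM in the WT libraries and 151, 179.9 and 173 CPM in the KO libraries and Cox7a2 144, 113 and 141 CPM in the WT libraries and 111, 107 and 122 CPM in the KO libraries. WT replicate 2 sat with the KO libraries in both genes, and log2 fold changes of 0.20 (SE 0.14) and -0.23 (SE 0.14) did not pass (adjusted p = 0.556 and 0.484, edgeR).

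Complex V, the ATP synthase, turned most uniformly to one side: 14 of its 15 genes had a log2 fold change below 0 (all tested genes 54.2%), with a median of -0.10. The groups did not overlap in 4 of the 15 (26.7%), all with KO lower. Among all tested genes this held for 22.0% in either direction and 11.5% with KO lower. With library totals in place of TMM factors the summed share of its genes was instead 0.382% ± 0.0214 of the counts in WT and 0.398% ± 0.0197 in KO (SD, n = 3). In the catalytic head, Atp5a1 (subunit alpha) gave 787, 684 and 705 CPM in the WT libraries and 625, 584 and 659.8 CPM in the KO libraries, and the groups did not overlap. Atp5b (subunit beta) gave 765, 680.2 and 868 CPM in the WT libraries and 738, 737 and 823 CPM in the KO libraries, and here they did. Alpha and beta stand in equal number in the head, and their log2 fold changes were -0.22 (SE 0.11) and -0.010 (SE 0.12) (adjusted p = 0.364 and 0.980, edgeR). The ratio of Atp5a1 to Atp5b in CPM per kb, which no library scaling moves, was 0.795, 0.777 and 0.628 in WT. In KO it was 0.655, 0.612 and 0.619. WT replicate 3 fell among the KO values, so the ratio of 0.733 ± 0.0919 in WT and 0.629 ± 0.0232 in KO overlapped. Atp5c1, the rotating stalk, had a log2 fold change of -0.078 (SE 0.12). Of the peripheral stalk, which holds the head still, Atp5f1 (gene at chr3:105942698-105959263) gave 219.6, 210.1 and 223 CPM in the WT libraries and 163, 174 and 201 CPM in the KO libraries. No KO value reached the lowest WT value, and the log2 fold change was -0.28 (SE 0.12) (unadjusted p = 0.052, adjusted p = 0.320, edgeR). Of the small membrane subunits, Atp5k and Atp5l also had non-overlapping groups but by narrow margins: the highest KO value of Atp5k was 89.9 CPM beside a lowest WT value of 90.3 CPM. Atp5j2 had a log2 fold change of -0.23 (SE 0.14), and Atp5e and Atp5d, at 477 and 431 CPM per kb the most abundant of the complex, ones of -0.090 and -0.10.

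Subunit c, which forms the rotating ring, is made from 3 genes that encode the same mature protein. Atp5g2, the gene with the NRF1 motif shown above, supplied the largest share in every library: 51.2% to 59.8% of the summed CPM per kb, against 19.4% to 30.1% from Atp5g1 and 15.7% to 22.5% from Atp5g3. Group means were 56.1% ± 4.26 in WT and 59.6% ± 0.186 in KO for Atp5g2 (SD, n = 3), and WT replicate 3 was the library that stood apart. The log2 fold changes were -0.21 (SE 0.21) for Atp5g1, 0.00030 (SE 0.13) for Atp5g2 and -0.22 (SE 0.14) for Atp5g3. Counts of Atp5g1 and Atp5g2 are uncertain, as given below.

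**Figure D3:**
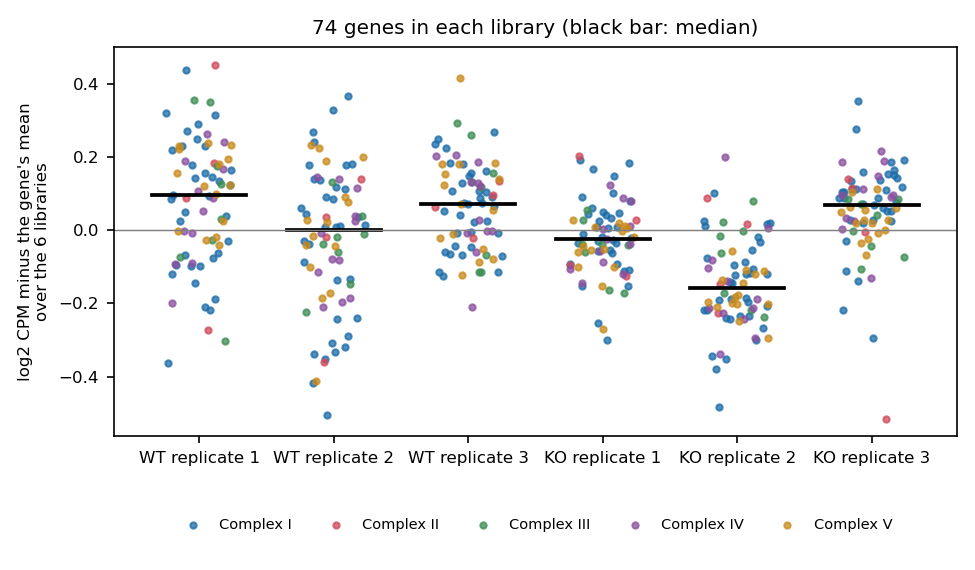
Deviation of each of the 74 ubiquitous subunit genes from its mean over the 6 libraries (log2 CPM, y axis), by library (x axis, 3 WT and 3 KO). KO replicate 2 sits lowest with a median of -0.16, whereas KO replicate 3 has a median like those of WT replicates 1 and 3.

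Of the 6 fits that leave out a library, the one without KO replicate 2 had the median nearest to 0. The median deviation of the 74 genes from their own means was 0.10, -0.00025 and 0.073 in WT replicates 1 to 3 and -0.025, -0.16 and 0.070 in KO replicates 1 to 3 (log2 CPM). KO replicate 2 was the lowest library for 37 of the 74 genes, a position it held for 13.0% of all tested genes. WT replicate 2 was the lowest for 18 (24.3%, all tested genes 22.8%). WT replicate 1 was the highest library for 25 (33.8%, all tested genes 22.0%). Without KO replicate 2 the median over tested members was -0.011 (all genes -0.052) and 43 of 78 were below 0. The members' share was also taken of the counts over 1 row per symbol, with no scaling factor. It was 1.28%, 1.28% and 1.16% in WT replicates 1 to 3 and 1.34%, 1.25% and 1.41% in KO replicates 1 to 3. By this measure KO was the higher group on average (1.33% ± 0.0787 against 1.24% ± 0.0708, SD, n = 3), with overlapping values, and WT replicate 3, with 14.5% of its counts in erythroid markers, had the lowest share.

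Scaling set the position of the whole group. Scaled to 13 pan-T cell genes, the members' median was -0.39 beside -0.36 over all genes, 77 of 78 members were below 0, 20 had an unadjusted p under 0.05 and 0 were called (edgeR, smallest adjusted p 0.125). Over the 20 alternatives the members' median minus that of all genes stayed between -0.062 and 0.041. Transcript length moved with the lean as well, since subunit transcripts are short (median 679 bases against 2734 for all tested genes). The 13 tested members under 500 bases had a median log2 fold change of -0.20, the 39 from 500 to under 1000 bases -0.070, the 21 from 1000 to under 2000 bases -0.078 and the 5 from 2000 to under 4000 bases 0.032. Over all tested genes the same bins had medians of -0.090, -0.069, -0.051 and -0.035. The 3407 genes of 4000 bases and over, with 0 members among them, had a median of -0.042. The Spearman correlation of log2 fold change with length was 0.22 over the 78 tested members and 0.0073 over all tested genes. With each library's trend on length taken out, the members' median was -0.0022 and none of the 78 had an unadjusted p under 0.05. The part of length in the lean was not tested further.

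**Figure D4:**
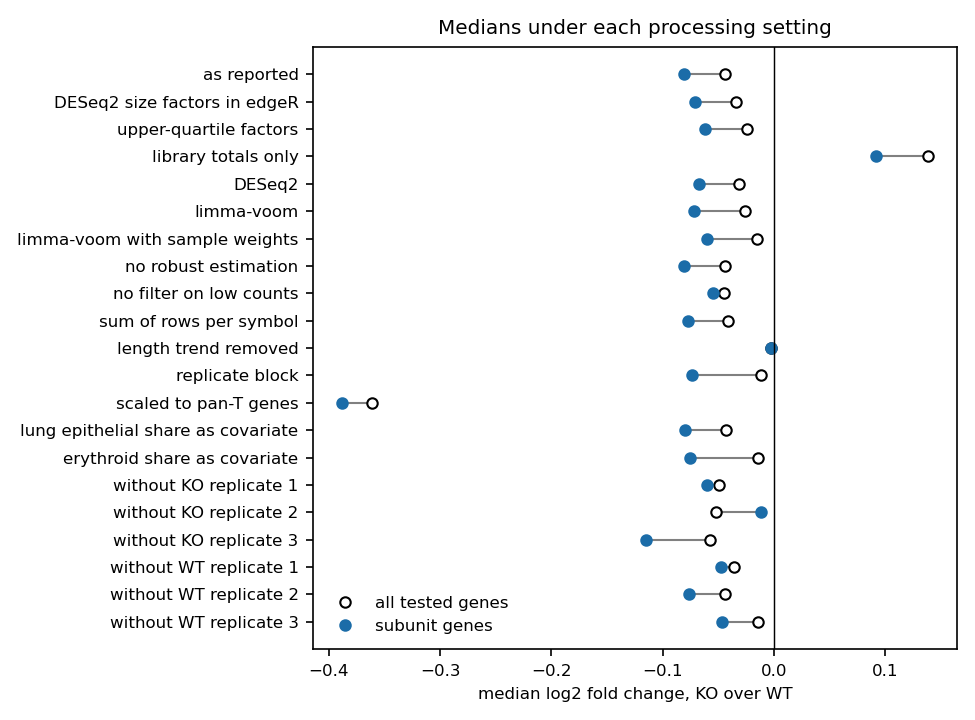
Median log2 fold change of the tested subunit genes and of all tested genes (x axis) under the fit as reported and its 20 alternatives (y axis). The 2 medians move together, from -0.39 and -0.36 with pan-T scaling to 0.092 and 0.14 with library totals.

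Some subunit genes have near copies in the genome, and how the authors counted reads that map to several places was not stated in the labels. All 84 members were found in the GENCODE M21 transcripts, and the share of a member's 30-base words that also occur in other genes' transcripts was at least 50% for 8 tested members. These were Atp5g2 (87.7%), Atp5l (69.7%), Atp5g1 (67.4%), Atp5h (61.4%), Ndufa12 (59.2%), Cox7c (56.0%), Uqcrb (54.9%) and Ndufs3 (50.3%), whose counts are therefore uncertain. Their median log2 fold change was -0.10, and that of the 47 tested members with under 10% shared words was -0.072. By promoter motif, the median log2 fold change was -0.093 with an NRF1 match (8 members) and -0.092 without (58), -0.081 with an ETS match (16) and -0.096 without (50), and -0.20 with a YY1 match (11) and -0.083 without (55). These differences were not tested.

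Genes that build, feed or regulate the chain also had no called member, by the edgeR test over all genes. Of 44 tested assembly factors, 5 had an unadjusted p under 0.05, 4 of them lower in KO, and the median log2 fold change was -0.0046. Cox10, which makes the precursor of the heme a of complex IV, had a log2 fold change of -0.66 (SE 0.21) with non-overlapping groups (41.5, 49.3 and 32.4 CPM in the WT libraries and 26.4, 27.6 and 23.1 CPM in the KO libraries; adjusted p = 0.175). Uqcc2, a complex III assembly factor, had one of -0.56 (SE 0.18) (adjusted p = 0.182). Of 23 electron carriers and quinone-linked dehydrogenases (median -0.026), 3 had an unadjusted p under 0.05. Cycs, cytochrome c itself, gave 117, 132 and 149 CPM in the WT libraries and 96.5, 81.5 and 106 CPM in the KO libraries and a log2 fold change of -0.49 (SE 0.16) (adjusted p = 0.170), and Chdh, choline dehydrogenase, one of 1.20 (SE 0.28) (adjusted p = 0.079).

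Among 10 regulators and carriers around the ATP synthase (median -0.030), the ADP/ATP carrier Slc25a5 had a log2 fold change of -0.26 (SE 0.10) and the phosphate carrier Slc25a3 one of 0.19 (SE 0.10). The 20 genes of the tricarboxylic acid cycle and pyruvate dehydrogenase had a median of -0.064, with Pdhx, a structural part of pyruvate dehydrogenase, at -0.79 (SE 0.27) and Mpc1, of the mitochondrial pyruvate carrier, at -0.56 (SE 0.19). The 19 tested regulators of mitochondrial biogenesis had a median of 0.072. Myc, a transcription factor of growth, gave 128, 84.2 and 127 CPM in the WT libraries and 59.0, 64.8 and 49.3 CPM in the KO libraries and a log2 fold change of -0.99 (SE 0.20) just short of the threshold (adjusted p = 0.051, edgeR), and Polrmt, the mitochondrial RNA polymerase, one of 0.89 (SE 0.31) (adjusted p = 0.202). Of 76 mitochondrial ribosomal protein genes (median -0.12), 8 had an unadjusted p under 0.05, led by Mrpl17 at -0.75 (SE 0.18) and Mrps5 at 0.83 (SE 0.22) in opposite directions. The 81 tested cytosolic ribosomal protein genes, short and abundant like the subunits, had a median of -0.096. An unadjusted p under 0.05 was found in 9, all lower in KO (all tested genes 15.9%, 9.13% lower, edgeR). Every KO library was below every WT library in 22 (27.2%, all tested genes 11.5%). Rpl31 and Rps20 led them with log2 fold changes of -0.48 (SE 0.15) and -0.33 (SE 0.11).

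Glycolysis, the other main route to ATP, also had 0 of 17 genes called (median -0.088). Eno2, the neuronal enolase, gave 0, 0 and 0.0946 CPM in the WT libraries and 1.85, 2.24 and 2.98 CPM in the KO libraries and reached an adjusted p of 0.053 (edgeR) at levels near the limit of detection in WT. Hk2, a hexokinase that activated T cells use, gave 8.29, 15.7 and 40.3 CPM in the WT libraries and 7.89, 6.56 and 9.87 CPM in the KO libraries, a log2 fold change of -1.42 (SE 0.54) and an adjusted p of 0.254 (edgeR).

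**Figure D5:**
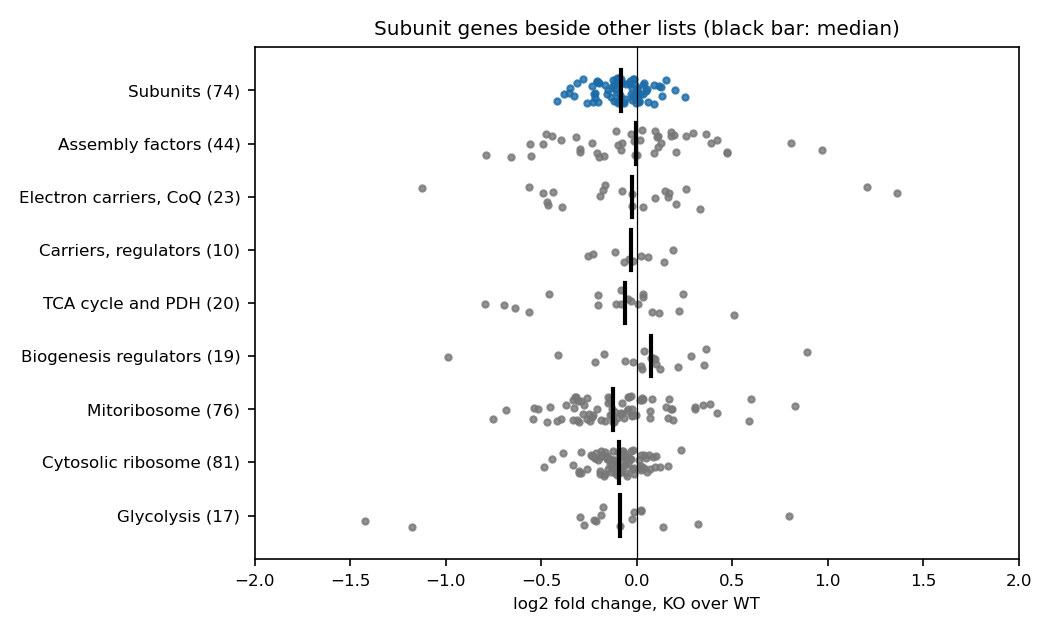
Log2 fold change of KO over WT (x axis) for each of 74 subunit genes and for the tested genes of 8 related lists (y axis, number of genes in brackets), each point a gene and each black bar a median; Eno2 of the glycolysis list lies beyond the axis. The subunit and cytosolic ribosomal genes lie around medians of -0.081 and -0.096, from -0.42 to 0.25 and from -0.48 to 0.23.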

How the data were processed

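The deposited table holds raw read counts for RefSeq transcripts and their lengths, per the file headers and the values. The submitters' processing notes name bcl2fastq, Bowtie2 2.2.6, TopHat2 2.2.1 and mm10. How the authors counted reads (program, strand, reads mapping to several places) is not given in the sources used here. For each symbol the row of highest summed count was kept (10 members have several rows). Of the table's 31682 rows 0 lacked a symbol, and 0 per-sample columns were left unused.

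Genes passing filterByExpr (minimum count 10, minimum total 15) were tested, 12720 in all. The test of KO against WT was the quasi-likelihood F-test of edgeR 4.0.16 (R 4.3.3) with TMM factors and robust estimation, on all 6 libraries with no covariate and with Benjamini-Hochberg adjustment over all 12720 genes. An adjusted p under 0.05 was called. SE is the absolute log2 fold change over the square root of F, and 95% intervals use the t quantile at the test's degrees of freedom. CPM values use TMM-scaled library sizes, with no prior count. The 20 alternatives were other scalings, DESeq2 1.42.0, limma-voom (limma 3.58.1) with and without sample weights, non-robust estimation, no filter, summed rows, a length correction, a replicate block, marker covariates, and leaving out each library. The test script was tested on simulated data.

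Members and lists were chosen with earlier results of these data known. Text names any called member, the 3 members of smallest p and of highest level per complex, core subunits and isoform families, and for each other list the 2 genes of smallest p where none was called. A few genes under this rule enter the counts and are not reported here. Genes named as extremes of a range, as non-overlapping, as motif examples or as sharing sequence were chosen after their values were seen. The 15 other lists were 8 of related pathways and 7 of cell type markers. Promoters and gene positions are from RefSeq (GRCm38.p6, the assembly behind mm10).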

Additional observations from a re-analysis of the deposited data

How the results depend on the processing

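In each of the 20 alternatives 0 subunit genes were called, with a smallest adjusted p of 0.125 among them (edgeR, pan-T scaling). The members' median log2 fold change moved by more than its SD between libraries, 0.084, only with library totals (0.092) and with scaling to pan-T genes (-0.39). That SD is as large as the reported median of -0.081, so a median brought near 0 does not count as moved. With the length trend removed the median was -0.0022, with 40 of 78 members below 0. Leaving out each library in turn gave medians of -0.11 (without KO replicate 3) to -0.011 (without KO replicate 2), with 0 called throughout. The count over all genes, 221, was less stable. It was 863 with DESeq2, 134 with summed rows, 97 with the length trend removed, 8 with the lung epithelial share and 470 with the erythroid share as covariate. Leaving out a library gave 4 (without KO replicate 1) to 518 (without WT replicate 3), with 7 without KO replicate 3, 22 without WT replicate 2, 33 without WT replicate 1 and 124 without KO replicate 2. The causes were not tested. With the replicate number as a block the count was 123, with 0 members called and a member median of -0.074. Deviations of same-numbered libraries correlated with r = 0.084, -0.15 and -0.044 for numbers 1 to 3. The labels do not say what the numbers mean. Whether same-numbered samples share more than a number was not tested. Crlf2 was called in every alternative. Of the related genes named above, Chdh and Myc were each called in 4 alternatives, Eno2 in 2, and Polrmt, Mrpl17 and Mrps5 in 1 each. WT replicate 2 was the shallowest library, with 1439736 counts over 1 row per symbol. There 1 read equals 0.684 CPM, so the tissue-restricted isoforms rest on 0 to 2 reads in that library. The ubiquitous subunits had 47 to 15771 reads in each library.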

Other observations

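Of the 7 lists of cell type markers, 1 held a called gene: Acta1, skeletal muscle actin, gave 232, 281 and 208 CPM in the WT libraries and 120.2, 139 and 143 CPM in the KO libraries and its log2 fold change was -0.84 (SE 0.15), with an adjusted p of 0.038 in edgeR and every KO value lower. It was the only one of 12 muscle and heart markers with enough reads to be tested. No other tested marker was called. The 15 Treg and T cell markers had a median log2 fold change of 0.22 with 3 at an unadjusted p under 0.05, all higher in KO (Cd3g 0.52, Cd4 0.54). The 14 lung epithelial markers had a median of -1.73, with all 14 below 0 and 5 at an unadjusted p under 0.05 (Krt18 -1.51, Scgb3a1 -2.79). Medians were -4.72 over 9 erythroid markers (Alas2 -4.86), -0.91 over 10 macrophage markers (Fabp5 0.60, Mrc1 -1.31), -1.41 over 6 B cell markers (Sdc1 -1.14) and -3.01 over 4 neutrophil markers (Retnlg -3.93, S100a9 -3.45). These medians rest largely on WT replicate 3. Without it they were -0.93 over the erythroid, 1.497 over the macrophage, -0.17 over the B cell and -0.32 over the neutrophil markers, so that the macrophage markers turned higher in KO, all 10 of them. The Treg and T cell median was then 0.013, and that of the lung epithelial markers stayed at -1.79. The part of the markers in the values of the subunit genes was not tested beyond the covariate fits.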
